A study of Mus musculus with 16 samples.

Results

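The transcription start site (TSS) core is the stretch of 400 bp to each side of a gene's annotated start, 800 bp in all. Cores were chosen by position: for every autosomal gene of the deposited table, the 16 central bins of its 200 bins of 50 bp. This gave 3789 cores of the 3925 genes measured, and the 136 genes off the autosomes were left out. The study used chromatin immunoprecipitation with sequencing (ChIP-seq) on mesenchymal stromal cells of the endosteum, the bone surface that lines the marrow. Control mice (WT) were C57BL/6J animals carrying Bap1fl/fl, in which the floxed gene is intact, and conditional knockout mice (cKO) were Prx1-cre;Bap1fl/fl on the same background. Prx1-cre is active in limb bud mesenchyme and its descendants, so other cells of the mouse keep Bap1. Each genotype had 2 libraries for each of 4 marks, which makes 8 groups and 16 libraries. No age of the mice was found in the labels. Whether both libraries of a group stem from different animals is not stated, so p-values measure only their spread, which may be technical. The antibody fields of the H3K4me3 and H3K27ac libraries name each other's antibody, and both are called by title.

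BAP1 is a deubiquitinase that takes ubiquitin off a lysine of histone H2A (H2AK119ub1), a modification laid down by Polycomb repressive complex 1. H3K27me3 is laid down by Polycomb repressive complex 2, whereas H3K4me3 and H3K27ac mark the nucleosomes of active promoters. At an active start the DNA just upstream of the TSS is kept free of nucleosomes, and the first nucleosome of the transcribed side sits next to it and often carries the most H3K4me3. A core therefore holds both a place where histone signal is missing and the nucleosome where it is strongest.

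Summed over all cores, the low points of the Polycomb marks, and of H3K27ac between its upstream and downstream peaks, lay in the 3 bins before the TSS. H3K4me3 had no low point there. The sequences of 7 cores named below are shown for these 3 bins. Each line gives the 150 bases before the start, 5′ to 3′ on the gene's strand, from RefSeq promoters of GRCm38.p6, with CpG dinucleotides in capitals. The first 4 cores were CpG-rich (observed over expected CpG of at least 0.6 and GC of at least 50% over the 300 bases of the RefSeq promoter) and the last 3 were not.

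Foxd1: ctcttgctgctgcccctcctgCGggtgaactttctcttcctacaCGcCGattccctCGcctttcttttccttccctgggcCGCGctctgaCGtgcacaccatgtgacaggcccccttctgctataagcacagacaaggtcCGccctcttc
Phf19: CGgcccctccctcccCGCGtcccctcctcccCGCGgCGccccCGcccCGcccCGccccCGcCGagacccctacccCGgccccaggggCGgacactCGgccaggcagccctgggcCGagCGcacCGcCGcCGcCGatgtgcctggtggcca
Plcd3: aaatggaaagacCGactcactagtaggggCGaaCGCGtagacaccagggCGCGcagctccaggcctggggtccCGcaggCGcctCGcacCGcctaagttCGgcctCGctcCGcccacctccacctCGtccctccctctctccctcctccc
Plxnd1: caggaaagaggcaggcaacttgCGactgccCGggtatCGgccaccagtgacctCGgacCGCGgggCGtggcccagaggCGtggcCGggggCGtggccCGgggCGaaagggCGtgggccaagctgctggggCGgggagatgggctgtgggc
Evi2: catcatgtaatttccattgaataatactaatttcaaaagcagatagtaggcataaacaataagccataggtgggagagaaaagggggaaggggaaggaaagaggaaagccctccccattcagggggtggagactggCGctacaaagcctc
Il18rap: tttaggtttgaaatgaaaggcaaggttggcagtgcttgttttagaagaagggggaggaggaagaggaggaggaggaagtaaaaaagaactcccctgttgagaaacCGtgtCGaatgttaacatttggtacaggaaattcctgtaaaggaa
Tnnc1: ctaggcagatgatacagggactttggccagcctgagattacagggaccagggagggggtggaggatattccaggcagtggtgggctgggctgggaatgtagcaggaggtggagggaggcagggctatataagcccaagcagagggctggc

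These stretches lie at chr13:98354092-98354241 (plus strand, Foxd1), chr2:34913977-34914126 (minus, Phf19), chr11:103101659-103101808 (minus, Plcd3) and chr6:115995006-115995155 (minus, Plxnd1). The CpG-poor ones lie at chr11:79530610-79530759 (minus, Evi2), chr1:40515212-40515361 (plus, Il18rap) and chr14:31208162-31208311 (plus, Tnnc1). Phf19 held 20 CpG in these 150 bases, Plcd3 and Plxnd1 14 each and Foxd1 8. Il18rap held 2, Evi2 1 and Tnnc1 0. A RefSeq promoter within 50 bp of the file's TSS was found for 1959 cores (51.7%), so statements on sequence cover only these. Among them 1256 (64.1%) were CpG-rich, against 33.5% of all 32851 RefSeq promoters of the same length. The median number of CpG in the 150 bases was 14 in the CpG-rich cores and 4 in the 703 CpG-poor cores. The letters TATAAA, searched on the gene's strand from 40 to 20 bp before the start, were in 33 of the 1959 promoters (1.68%) and in 1.99% of all RefSeq promoters.

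The libraries held 1233909 to 9966252 autosomal counts, and the median core held 16 (H3K27me3 WT replicate 1) to 914 counts (H3K4me3 cKO replicate 2). Each read was counted in about 3 neighbouring bins, so features narrower than that are smoothed. Counted once, the 2 libraries of a group differed over cores by more than counting noise, with a chi-square of 1.69 to 2.73 per degree of freedom. Input libraries were not used here, so uneven DNA recovery around the TSS was not tested. The Bap1 gene itself was not analysed here. Of the stroma markers, 7 of 11 were measured, all with the authors' mark DOWN (described below), so they are no free sample. Their summed H3K4me3 in the core was 298 and 294 CPM (counts scaled to library size) in cKO against 654 and 608 in WT. Of the markers of other cell types, 1 of 12 blood genes, none of 8 endothelial genes and 1 of 6 muscle genes were measured. Their core H3K4me3 was at most 4.96 CPM in any library, so the cell type can be checked here only in part.

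Summed over all cores, both Polycomb marks were thinned at the TSS and both active marks rose steeply across it. In WT, summed H2AK119ub1 fell to 0.916 and 0.850 times the level of the outer 1 kb of the 10 kb windows, at 25 and 75 bp upstream of the TSS. That low point was 73.9% and 74.7% of the highest level of the 30 bins upstream, which lay 825 and 625 bp away. H3K27me3 had a shallower low point 75 bp upstream, at 1.11 and 1.07 times the outer level, or 91.2% and 90.1% of its upstream maximum. H3K4me3 climbed from 7.97 and 7.69 times the outer level at the upstream edge of the core to 16.8 and 17.6 times at 275 and 225 bp downstream. It had no separate upstream peak in the sum over all cores, only a shelf of 8.999 and 8.62 times at 175 bp upstream. H3K27ac did have one: it reached 4.04 and 4.17 times the outer level at 275 and 225 bp upstream, dipped to 3.68 and 3.91 times at 75 bp upstream, and peaked at 5.81 and 6.28 times 225 bp downstream.

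**Figure D1:**
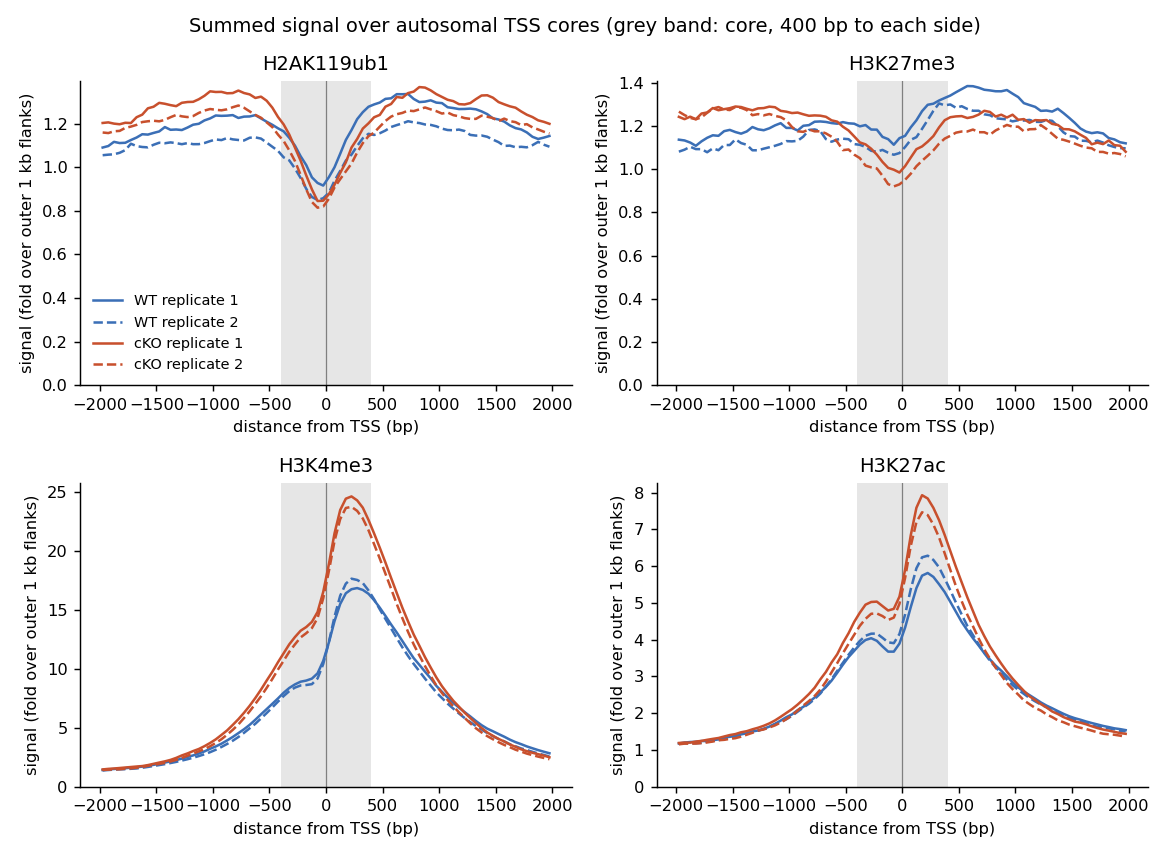
Summed signal of the 3789 autosomal TSS cores and their surroundings for 4 marks, as fold over the outer 1 kb of the windows (y) against distance from the TSS in bp (x), 1 line per library. H2AK119ub1 dips at the TSS in all 4 libraries, and the downstream H3K4me3 maximum is 16.8 and 17.6 in WT and 24.6 and 23.7 in cKO.

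In cKO the low point of H2AK119ub1 was 62.5% and 63.4% of its upstream maximum, below both WT libraries. For H3K27me3 the low point was 0.985 and 0.921 times the outer level, or 76.3% and 71.4% of the upstream maximum. The downstream maximum of H3K4me3 was 24.6 and 23.7 times the outer level in cKO, and it lay at 225 bp. That of H3K27ac was 7.93 and 7.47 times and lay at 175 bp, where WT had it at 225 bp. The upstream dip of H3K27ac was shallower in cKO, at 95.2% and 96.2% of its shoulder against 91.0% and 93.7% in WT. In each of these values of the summed cores except the position of the H3K4me3 peak, which WT replicate 2 shared with cKO, the 2 genotypes did not overlap. A fold depends on the outer level as well as on the core, and the outer level changed too. For H3K4me3 its log2 change in cKO ran from -0.82 (chromosome 16) to 0.52 (chromosome 7). For H3K27ac it ran from -0.61 (chromosome 6) to 0.50 (chromosome 7). The part of this in the higher folds was not tested.

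These measures describe the core in each library. The share of window counts that fell in the core was 28.4% and 29.6% for H3K4me3 in WT and 34.9% and 35.2% in cKO. For H3K27ac it was 21.0% and 22.2% in WT against 25.3% and 25.2% in cKO. The shares of the Polycomb marks in the summed counts were lower in cKO: 7.91% and 7.46% against 7.25% and 7.12% for H2AK119ub1, and 8.74% and 8.54% against 7.84% and 7.46% for H3K27me3. With each gene weighing the same, the genotypes overlapped: 7.70% and 7.32% in WT against 7.34% and 7.17% for H2AK119ub1, and 7.35% and 7.48% against 7.51% and 6.95% for H3K27me3. That difference for H3K27me3 was -0.184 percentage points, where the summed counts gave -0.986. A core is 8% of the window, so both Polycomb marks were near an even spread while the active marks were concentrated.

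The TSS depletion index is the log2 ratio of the mean signal in the 4 bins within 100 bp of the TSS to that in the other 12 core bins. For H2AK119ub1 it was -0.247 and -0.210 in WT and -0.305 and -0.259 in cKO. For H3K27me3 it was -0.0997 and -0.0896 in WT and -0.135 and -0.134 in cKO. In the summed counts both Polycomb marks were thus lower at the TSS in cKO. With each gene weighing the same, H3K27me3 overlapped between genotypes (-0.160 and -0.0919 in WT, -0.133 and -0.162 in cKO), and H2AK119ub1 had -0.237 and -0.237 in WT against -0.304 and -0.244. In the test of single cores given below, 0 were called for either mark and the median change of this ratio was a log2 of 0.00471 for H2AK119ub1 and 0.0144 for H3K27me3, above 0. The active marks had a higher index in cKO. H3K4me3 had -0.109 and -0.137 in WT against -0.0318 and -0.0210 in cKO, and H3K27ac -0.175 and -0.158 against -0.126 and -0.0946. With each gene weighing the same, H3K4me3 had -0.0183 and -0.0344 in WT against 0.0707 and 0.0776 in cKO. H3K27ac then had -0.113 and -0.0984 in WT against -0.0580 and -0.0419 in cKO. A negative index needs no low point, and summed H3K4me3 had none at the TSS.

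The downstream to upstream index is the log2 ratio of the 400 bp after the TSS to the 400 bp before it. It was largest for H3K4me3, at 0.786 and 0.890 in WT and 0.762 and 0.773 in cKO. H3K27ac had 0.465 and 0.514 in WT and 0.550 and 0.555 in cKO. H2AK119ub1 (0.134 and 0.143 in WT, 0.0654 and 0.0857 in cKO) and H3K27me3 (0.116 and 0.155, 0.0903 and 0.0999) leaned downstream only slightly. In the summed counts the 2 genotypes did not overlap in the share or in either index for any mark. Each had a two-sided exact permutation p of 0.33. No lower value can be reached with 2 libraries against 2, so none can pass 0.05.

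**Figure D2:**
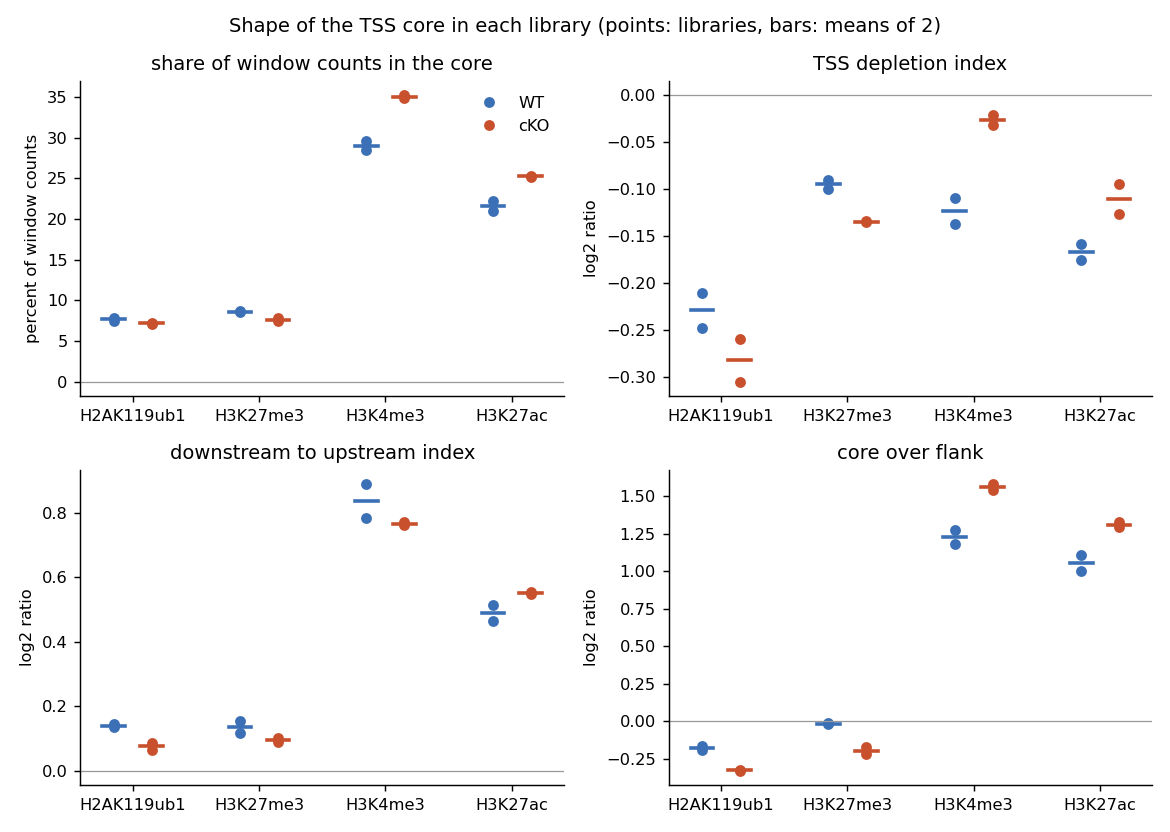
The share of window counts in the core (percent), the TSS depletion index, the downstream to upstream index and the core over flank ratio (log2), by mark, 1 point per library and a bar for the mean of 2. The H3K4me3 and H3K27ac shares are higher in both cKO libraries (34.9% and 35.2%; 25.3% and 25.2%) than in both WT libraries.

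Single cores were more varied than their sum. Among cores with a mean of at least 10 counts in WT, H3K4me3 was higher downstream than upstream in both libraries at 2607 of 3684 cores (70.8%) and the reverse at 520 (14.1%). At windows of the same size 3 kb upstream and 3 kb downstream of the same starts, 27.5% and 19.0% were higher on the side toward the gene's 3′ end. For H3K27ac the share was 55.3%. A dip of H2AK119ub1 at the TSS in both WT libraries was seen at 623 of 3581 cores (17.4%), against 10.8% and 9.82% of windows 3 kb away. In cKO it was seen at 747 of 3671 cores (20.3%). For H3K27me3 such a dip was little more frequent in cores than elsewhere. It was seen in WT at 300 of 2833 cores (10.6%), against 9.33% and 8.35% of windows 3 kb upstream and downstream. In cKO it was seen at 12.6%, against 10.3% and 9.52%. The median core held 39 and 36 H2AK119ub1 counts in the WT libraries, with each read counted about 3 times. That is too few for the dip of a single core to be read.

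The depth of the depletion differed by class of promoter. In CpG-rich cores the WT low point of H2AK119ub1 was 58.4% and 58.2% of the upstream maximum, and in CpG-poor cores 87.6% and 78.5%. The H2AK119ub1 depletion index was -0.428 and -0.398 in CpG-rich and -0.0775 and -0.140 in CpG-poor cores in WT. H3K4me3 was less lopsided in CpG-rich cores (downstream to upstream index 0.770 and 0.879) than in CpG-poor cores (1.10 and 1.28). Of the 3678 cores where a neighbour could be looked for, 453 (12.3%) had another gene starting on the opposite strand within 1 kb. These divergent cores had 2 H3K4me3 peaks in WT, at 23.4 and 23.9 times the outer level 375 bp upstream and at 27.4 and 29.0 times downstream, with a valley 75 bp upstream that was 76.4% and 70.5% of the upstream peak. The other 3225 cores had no valley there. Their downstream to upstream index was 0.895 and 1.01, against 0.310 and 0.379 in divergent cores. The H3K4me3 valley of divergent cores was shallower in cKO, at 79.2% and 81.6% of the upstream peak.

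**Figure D3:**
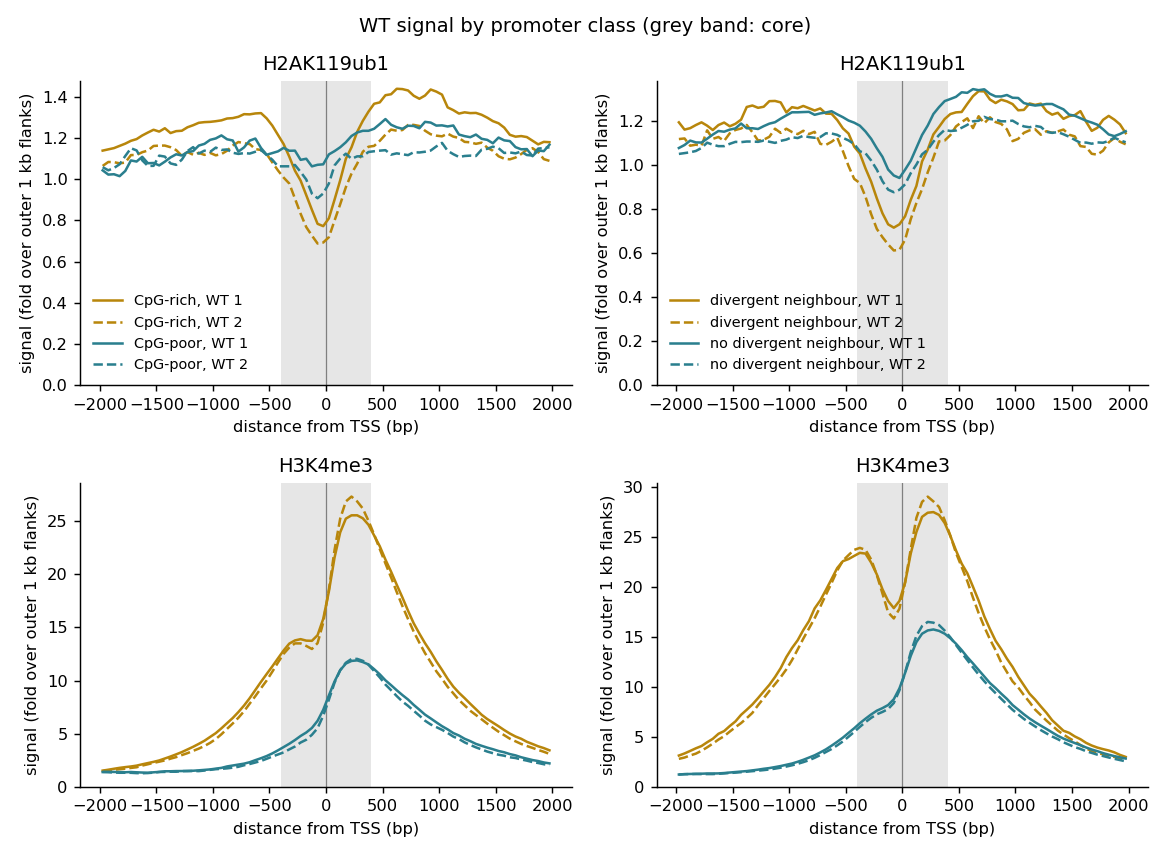
WT signal of H2AK119ub1 (upper panels) and H3K4me3 (lower panels), as fold over the outer 1 kb flanks against distance from the TSS in bp, for CpG-rich and CpG-poor cores (left) and cores with and without a divergent neighbour (right), 1 line per library. The H2AK119ub1 dip is deeper in CpG-rich than in CpG-poor cores, and divergent cores show an H3K4me3 valley at 76.4% and 70.5% of their upstream peak.

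The depth of the dip also differed with the H3K4me3 of the surroundings. Cores were put in 4 groups of equal size by their WT H3K4me3 in the flank, 400 bp to 2 kb to each side, a measure outside the core. The WT H2AK119ub1 depletion index was -0.0319 and -0.00375 in the lowest group, -0.241 and -0.192 in the next, -0.379 and -0.338 in the one above it and -0.399 and -0.379 in the highest. H3K27me3 went from 0.0124 and 0.0119 to -0.324 and -0.341 between the lowest and highest groups. H3K27ac went from 0.00482 and 0.0384 to -0.294 and -0.293. In the lowest group H3K4me3 was higher at the TSS itself (0.267 and 0.287).

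Each core was then tested for a change in its level between genotypes with edgeR's quasi-likelihood test, with Benjamini-Hochberg (BH) adjustment over all genes and a threshold of 0.05. Library sizes came from the whole 10 kb windows. H3K4me3 rose at 1617 of 3704 tested cores (43.7%) and fell at 528 (14.3%), and H3K27ac rose at 1056 of 3686 (28.6%) and fell at 586 (15.9%). The median core changed by a log2 of 0.27 for H3K4me3 and 0.15 for H3K27ac, so the split depends on the scaling. With factors taken from the cores themselves it was 1180 higher and 1024 lower for H3K4me3 and 861 and 760 for H3K27ac. H3K27me3 rose at 79 of 3259 cores (2.42%) and fell at 215 (6.6%), and H2AK119ub1 rose at 28 of 3680 (0.761%) and fell at 74 (2.01%). The median core changed by -0.04 for both Polycomb marks. Each mark was scaled to its own windows, so a change of its total level cannot be seen in these tests.

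Both the calls and the outer flanks differed by chromosome. H3K4me3 rose at 77.6% of the tested cores of chromosome 12, 74.4% of chromosome 7 and 74.1% of chromosome 4, and at 12.7% of chromosome 19 and 15.2% of chromosome 6. In the outer 1 kb flanks, 4 to 5 kb from the TSS, H2AK119ub1 was higher in cKO by a log2 of 0.38 on chromosome 7 and 0.32 on chromosome 4. It was lower by 0.45 on chromosome 19 and 0.46 on chromosome 16 (log2 -0.45 and -0.46). H3K27me3 moved with it, by 0.31, 0.36, -0.45 and -0.50 on the same 4 chromosomes. The 2 WT libraries differed by at most 0.113 in any such value and the 2 cKO libraries by at most 0.154. The mean shift of H2AK119ub1 and H3K27me3 on each chromosome was then taken off all 4 marks. H3K4me3 had outer shifts of its own that this does not remove: -0.82 on chromosome 16 and 0.27 on chromosome 13. On chromosome 13 H2AK119ub1 had -0.01 and H3K27me3 -0.12. With the mean shift removed, H2AK119ub1 kept 2 of its 28 higher and 8 of its 74 lower cores, and no other core was called. H3K27me3 had 73 higher and 168 lower cores (61 and 154 of them among the first calls), H3K4me3 1937 and 380 (1491 and 334) and H3K27ac 1020 and 432 (882 and 388). The origin of the shift was not tested.

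The 2 H2AK119ub1 cores that stayed higher were Eif3f, a translation initiation factor subunit, and ENSMUSG00000117922. Eif3f (chr7:108934017-108934816) had 0 and 0 counts in WT against 64 and 51 in cKO, at least 15.5-fold higher taking 3 counts per library as the floor. Its flanks held 21.4 and 13.7 CPM per kb in WT and 23.2 and 22.5 in cKO, so the WT gap was in the core alone. Rdh11, a retinol dehydrogenase, had 5.29 and 5.42 CPM in its core in WT and 31.1 and 25.9 in cKO (log2 2.4 ± 0.54 SE, adjusted p = 0.0194). C2cd3, a centriole gene, had 1 and 0 counts in WT against 27 and 34 in cKO. That is a ratio of 48.2 with an exact 95% counting interval of 8.33 to 1935, too narrow because reads are counted about 3 times. With the chromosome shift removed Rdh11 had a log2 of 2.11 (adjusted p = 0.0894) and C2cd3 one of 5.00 (0.0679), so neither was called then. Both calls were also lost without cKO replicate 1 (adjusted p = 0.188 and 0.0580), and that of Rdh11 without cKO replicate 2 (0.0580) and with 200 bp to each side (0.0608).

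H2AK119ub1 fell in the cores of Pcdhb19, a clustered protocadherin, Megf6, an EGF-repeat gene, and Ctnnd2, a delta-catenin. Megf6 (chr4:154170330-154171129) had 33.2 and 35.5 CPM in WT and 2.56 and 6.66 in cKO (log2 -2.85 ± 0.55, adjusted p = 0.00565). Pcdhb19 had 32.2 and 36.0 CPM in WT and 2.56 and 5.95 in cKO (-2.96 ± 0.55), and Ctnnd2 had 27.9 and 26.1 against 1.71 and 4.20 (-3.14 ± 0.64). All 3 stayed lower with the chromosome shift removed. Nphp4, Myh10 and Mad2l2, chosen after their values were seen, did so too. That shift is 1 value per chromosome, and whether it differs along a chromosome was not tested. On chromosome 4 it was positive, so taking it off made Megf6 lower, at a log2 of -3.19. Without cKO replicate 1 the H2AK119ub1 calls were 4 higher and 36 lower, and without cKO replicate 2 they were 13 and 44. Leaving out WT replicate 1 or 2 gave 64 or 68 higher cores.

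H3K27me3 fell steeply in some cores. Vldlr, a lipoprotein receptor (chr19:27216957-27217756), had 204 and 190 CPM in WT and 8.50 and 2.03 in cKO (log2 -5.17 ± 0.50, adjusted p = 3.6e-05). Foxd1, a forkhead factor of kidney stroma, had 206 and 188 against 14.0 and 19.7 (-3.55 ± 0.39). The naming rule asked for groups that do not overlap, so the gap between them is no separate evidence. H3K27me3 rose at Plcd3, a phospholipase C gene, from 13.8 and 14.8 CPM to 132 and 98.98 (3.01 ± 0.41, adjusted p = 1.9e-04). It rose at Arid3b, an ARID-domain factor, from 12.1 and 12.4 to 92.8 and 85.4 (2.85 ± 0.43), and at Klhl22, a ubiquitin ligase adaptor, from 8.62 and 13.2 to 92.2 and 78.6 (2.95 ± 0.46). Without cKO replicate 1 there were 23 higher and 129 lower H3K27me3 cores, and without cKO replicate 2 there were 11 and 69. Without WT replicate 1 or 2 there were 167 or 151 higher.

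The active marks moved in the opposite direction at most of these. Of the 215 cores that lost H3K27me3, 185 (86.0%) gained H3K4me3 and 144 (67.0%) gained H3K27ac, against 43.7% and 28.6% of all tested cores. They made up 11.4% of the cores that gained H3K4me3 and 13.6% of those that gained H3K27ac. Of the 79 cores that gained H3K27me3, 46 (58.2%) lost H3K4me3 and 48 (60.8%) lost H3K27ac, against 14.3% and 15.9% of all tested cores. Across 3667 cores the log2 changes of H3K4me3 and H3K27ac had Pearson r 0.766. Those of H3K27me3 and H3K27ac had -0.326 (3237 cores). Cores are not independent replicates, and the marks of 1 core share its position and chromosome.

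H3K4me3 rose at Vldlr, with 8.22 and 8.78 CPM in WT and 212 and 198 in cKO (log2 4.58 ± 0.15, adjusted p = 6.4e-10). Dio3os, a noncoding RNA opposite the deiodinase gene Dio3, had 1.77 and 1.53 CPM in WT and 140 and 149 in cKO (6.45 ± 0.22). H3K4me3 fell at Runx2, the master regulator of osteoblasts (chr17:44813827-44814626), which had 168 and 149 CPM in WT and 4.12 and 7.20 in cKO (-4.74 ± 0.21, adjusted p = 3.1e-09). Cdyl2, a chromodomain gene, had 128 and 168 against 3.48 and 2.47 (-5.67 ± 0.24), and Rbfa, a mitochondrial ribosome factor, 154 and 150 against 5.22 and 6.58 (-4.66 ± 0.18). The naming rule took cores whose genotypes do not overlap.

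H3K27ac rose at Slc16a6, a monocarboxylate transporter, from 22.1 and 21.8 CPM in WT to 248 and 219 in cKO (log2 3.41 ± 0.23, adjusted p = 4.0e-27). It rose at Kctd15, from 10.2 and 9.99 to 132 and 158 (3.84 ± 0.29), and at Vit, an extracellular matrix gene, from 11.2 and 22.1 to 231 and 188 (3.62 ± 0.25). It fell at Il18rap, an interleukin 18 receptor subunit, from 191 and 135 CPM per kb to 20.4 and 13.2 (-3.27 ± 0.29, adjusted p = 2.7e-19). It fell at Evi2, in CPM per core again, from 130 and 128 to 12.1 and 19.4 (-3.03 ± 0.28), and at St3gal6, a sialyltransferase, from 107.7 and 116 to 14.2 and 13.8 (-3.00 ± 0.29). Evi2 and Il18rap are 2 of the CpG-poor cores printed above. In bulk chromatin, fewer cells with a mark and less of it per cell cannot be told apart.

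The core did not always follow its flank. In the flank, tested alone, H3K4me3 rose at 1268 of 3761 (33.7%) and fell at 1377 (36.6%), and H3K27ac rose at 980 of 3747 (26.2%) and fell at 1086 (29%). H2AK119ub1 in the flank rose at 605 of 3745 (16.2%) and fell at 401 (10.7%), and H3K27me3 rose at 431 of 3744 (11.5%) and fell at 422 (11.3%). Among 3702 genes tested in both places, H3K4me3 rose in core and flank at 1130 and fell in both at 475. At 769 genes it fell in the flank while the core was not called, and at 126 it fell in the flank and rose in the core. The reverse, a lower core with a higher flank, was found at 4 genes. For H3K27ac the counts were 780, 515, 563, 4 and 1 of 3685.

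The authors marked each gene UP or DOWN, by a contrast that no label or header names, and 1849 cores carried UP and 1940 DOWN. The share of UP differed by chromosome, from 24.6% on chromosome 1 to 76.8% on chromosome 7. A split by UP and DOWN is therefore in part a split by chromosome. Of the 769 genes whose H3K4me3 fell in the flank with the core not called, 712 (92.6%) were marked DOWN. Of the 427 of them with sequence, 67.9% were CpG-rich. A core not called is not a core without change: 528 cores fell in the main fit and 1024 with factors taken from the cores. Of the 475 where core and flank both fell, 97.3% were marked DOWN and 52.0% of 252 were CpG-rich. At the 769 the median H3K27ac change was a log2 of -0.34 in the core and -0.66 in the flank. At the 475 it was -1.10 in both.

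**Figure D4:**
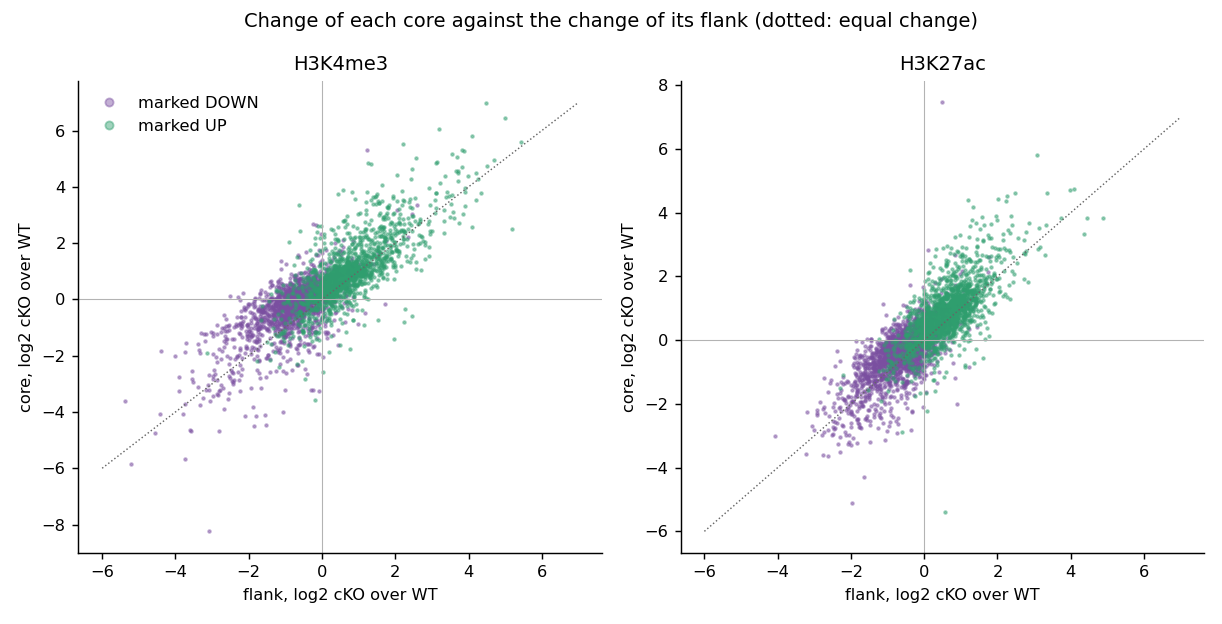
Log2 change (cKO over WT) of each core (y) against that of its flank (x) for H3K4me3 and H3K27ac, 1 point per tested gene, coloured by the authors' mark, with a dotted line for equal change. Most points lie above the dotted line on the left side of the H3K4me3 panel, where 769 genes fell in the flank with the core not called.

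The change of core over flank was tested directly, within each library, so that library size and any shift common to core and flank drop out. For H3K4me3 the ratio rose at 1317 of 3754 cores (35.1%) and fell at 167 (4.45%), and for H3K27ac at 292 of 3742 (7.8%) and 49 (1.31%). The median of its change was a log2 of 0.38 and 0.24. Taken relative to that median, the counts were 481 higher and 428 lower for H3K4me3 and 104 and 104 for H3K27ac. Cores marked DOWN carried 932 of the 1317 H3K4me3 calls (48.4% of 1924 tested), and cores marked UP 385 (21.0% of 1830). By chromosome the share ran from 24.5% (chromosome 9) to 46.1% (chromosome 1). For H2AK119ub1 the ratio rose at 1 of 3742 cores, Eif3f (0.0267%), and fell at 0 (0%), and for H3K27me3 it did so at 0 and 0 of 3730 (0% and 0%). The call of Eif3f was lost without WT replicate 1 or 2 (adjusted p = 0.535 and 0.283) and with 200 bp or 1 kb to each side (0.823 and 0.657). At an unadjusted p under 0.05, edgeR found 235 and 198. Leaving out WT replicate 1, cKO replicate 1 or cKO replicate 2 left 174, 121 or 116 higher H3K27ac cores. Without cKO replicate 1 or 2 there were 24 or 29 lower.

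In the composite of the UP cores, H3K27me3 was slightly above its flank in WT, by a log2 of 0.0699 and 0.0820, and below it in cKO, by -0.197 and -0.260. In the DOWN cores it was -0.132 and -0.134 in WT and -0.157 and -0.190 in cKO. H3K4me3 over flank went from 1.17 and 1.26 to 1.74 and 1.78 in DOWN cores and from 1.21 and 1.3 to 1.4 and 1.44 in UP cores. The larger rise was thus in the genes marked DOWN. H3K27me3 fell at 190 of 1555 tested UP cores (12.2%) and at 25 of 1704 DOWN cores (1.47%). Since that contrast is not known and UP and DOWN cores differ in their chromosomes, the split is a description.

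Single cores show what the ratio means. Optn, an autophagy receptor, had 102.5 and 94.0 CPM of H3K4me3 per kb in its core in WT and 99.1 and 115 in cKO. Its flank fell from 68.8 and 57.6 to 11.3 and 11.0 CPM per kb (core over flank, log2 2.63 ± 0.19, adjusted p = 3.6e-07). Plxnd1, a semaphorin receptor, kept 87.8 and 93.5 against 99.3 and 92.1 in the core while its flank fell from 100.3 and 95.6 to 18.5 and 21.4 (2.37 ± 0.17). In both, the genotypes overlapped in the core and not in the flank. The maximum of Plxnd1 moved from 475 bp downstream in both WT libraries to 275 bp upstream in both cKO libraries.

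Gsc, a homeobox gene of the organizer and a Polycomb target, did the opposite. Its core held 31.4 and 35.5 CPM of H3K4me3 per kb in WT against 193 and 188 in cKO, and its flank 4.18 and 5.05 against 176 and 166 (core over flank -2.70 ± 0.17, adjusted p = 1.4e-07). Its start is divergent with another gene. Plcd3 lost H3K4me3 from the core, 215 and 192 against 27.9 and 16.3 CPM per kb, while the flank held 70.1 and 61.4 against 65.9 and 58.1 (-3.17 ± 0.19). The flank of Plcd3 held a second peak about 1.5 kb upstream, whose highest bin was 7.89 and 7.13 CPM in WT and 17.3 and 14.5 in cKO. Its sequence is printed above, and its core had the lowest p among those that gained H3K27me3.

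For H3K27ac the rise of the ratio had its lowest p at Tnnc1, troponin C of slow and cardiac muscle, whose core went from 10.2 and 15.1 to 86.1 and 56.4 CPM per kb and its flank from 56.1 and 63.3 to 114 and 73.1 (log2 1.84 ± 0.29, adjusted p = 4.5e-06). At Loxl1, a lysyl oxidase of elastic fibres, the core had 127 and 112 against 82.5 and 68.2 and the flank 77.4 and 85.7 against 15.8 and 17.1 (1.65 ± 0.27). With the flank taken 2 to 5 kb away Loxl1 was not called (0.23, adjusted p = 0.668). The ratio fell at Rbfa (-2.91 ± 0.33) and Plcd3 (-1.92 ± 0.29). At Rbfa the core held 90.9 and 111 CPM of H3K27ac per kb in WT against 19.1 and 31.7, while its flank rose from 20.8 and 20.6 to 37.9 and 39.3 (log2 0.90, adjusted p = 5.66e-04). At Plcd3 both fell, the core from 128 and 142 to 20.7 and 22.6 CPM per kb and the flank from 60.8 and 55.8 to 34.6 and 36.2 (flank log2 -0.72).

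**Figure D5:**
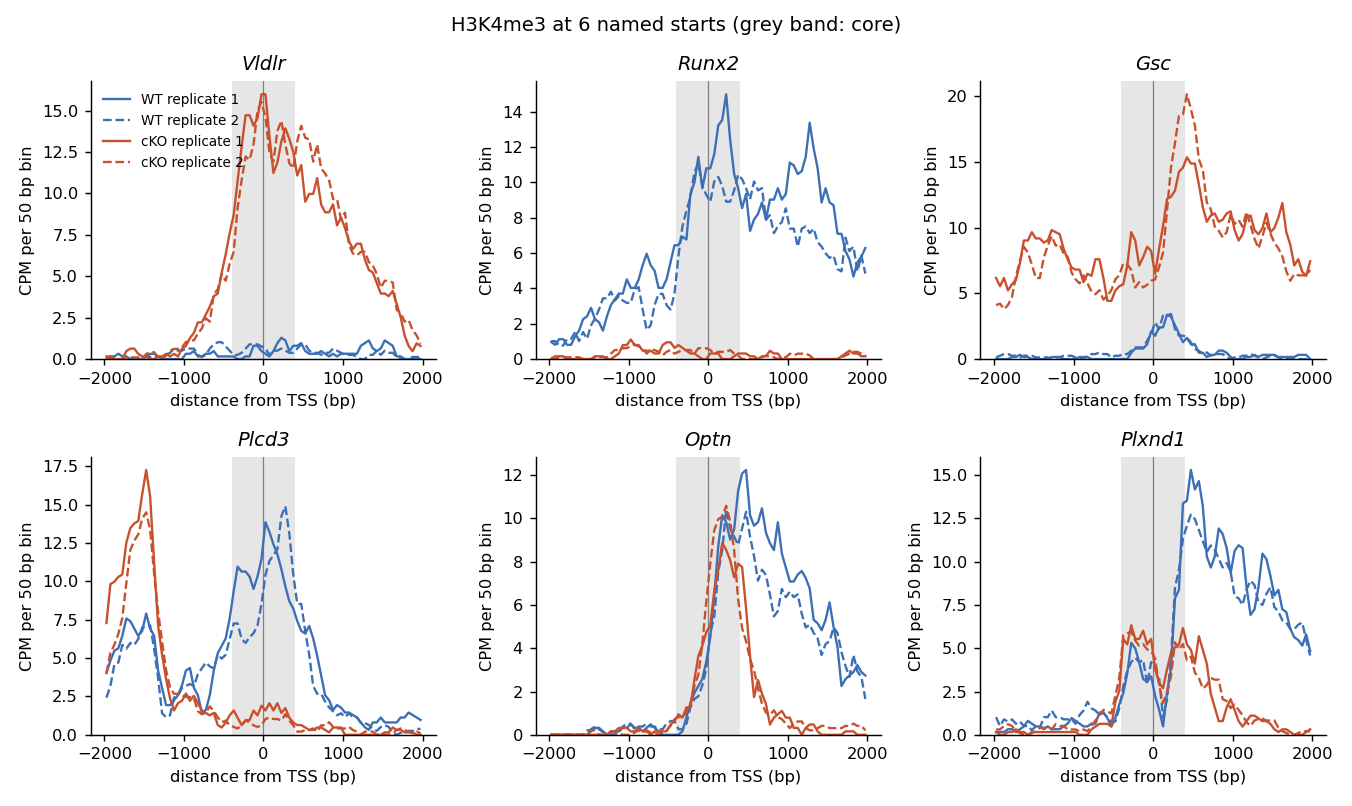
H3K4me3 in CPM per 50 bp bin (y) against distance from the TSS in bp (x) at 6 starts, 1 line per library, with the core shaded. Vldlr gains and Runx2 loses the mark throughout, Gsc gains it in core and flank, Plcd3 loses it in the core, and Optn and Plxnd1 keep it in the core (99.1 and 115, 99.3 and 92.1 CPM per kb in cKO) while the downstream flank falls.

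Within the core, the balance of the upstream and downstream sides changed at few genes. The ratio of the downstream to the upstream side of H3K4me3 rose at 68 of 3525 cores (1.93%) and fell at 149 (4.23%). Of the 149, 135 were marked DOWN and 14 UP, and of the 68, 18 and 50. In composites the index fell in DOWN cores from 0.864 and 0.973 to 0.753 and 0.768. In UP cores it was 0.675 and 0.774 in WT and 0.769 and 0.777 in cKO, where the genotypes overlapped. These calls rest on both cKO libraries: without cKO replicate 1 there were 0 higher and 2 lower, without cKO replicate 2 there were 2 and 11, without WT replicate 1 there were 118 and 297, and without WT replicate 2 there were 166 higher. For H2AK119ub1 (3459 tested), H3K27me3 (1912) and H3K27ac (3578) 0 cores were called in each direction (0%), with 171, 97 and 409 at an unadjusted p under 0.05 by edgeR. With the replicate number as a block, H3K27ac had 26 higher and 11 lower.

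Zyx, the focal adhesion protein zyxin, had the lowest p among the falls of this ratio. Its upstream side held 46.3 and 45.8 CPM of H3K4me3 per kb in WT against 129 and 119.2 in cKO, and its downstream side had 354 and 383 against 364 and 312 (log2 -1.56 ± 0.18, adjusted p = 3.6e-05). Wnt10b, a bone-forming Wnt ligand, rose: its upstream side went from 197 and 215 to 8.31 and 10.5, and its downstream side from 185 and 210 to 31.3 and 29.3 (1.71 ± 0.30, adjusted p = 0.00161). Without cKO replicate 1 Wnt10b was not called (adjusted p = 0.114).

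The 4 bins at the TSS gained H3K4me3 relative to the other 12 at 46 of 3525 cores (1.3%) and lost it at 7 (0.199%). Of the 46, 37 were marked DOWN. Gsn, the actin-severing protein gelsolin, had 129 and 147 CPM per kb at the TSS in WT against 217 and 181 in cKO, and 178 and 194 against 130 and 134 in the rest of the core (log2 1.01 ± 0.16, adjusted p = 6.7e-04). Rgs2, a regulator of G protein signalling, had 62.8 and 67.4 against 157 and 140 at the TSS and 30.1 and 39.2 against 182 and 148 in the rest (-1.05 ± 0.21). Without cKO replicate 1 there were 3 higher and 0 lower, and without cKO replicate 2 there were 0 and 0. Without WT replicate 1 there were 154 and 19, and without WT replicate 2 there were 12 lower. The call of Gsn and that of Rgs2 were lost without either cKO library. For H3K27ac 2 of 3578 cores rose (0.0559%) and 3 fell (0.0838%), with 262 at an unadjusted p under 0.05 by edgeR, and 0 were called once any 1 library was left out. They include Lrrk2, a kinase gene (1.31 ± 0.29), and Cpeb3 (-1.02 ± 0.20), whose core overlaps that of another gene. For H2AK119ub1 and H3K27me3 0 cores were called (0%), with 161 of 3459 and 92 of 1912 at an unadjusted p under 0.05.

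Most measured genes of osteoblasts lost active marks in their cores. All 8 that were measured, of a list of 20, were marked DOWN. H3K4me3 fell at 7 of 8 (median log2 -1.96, against 0.27 over all tested cores, of which 14.3% fell). H3K27ac fell at 6 (median -1.84, against 0.15 and 15.9%), and H3K27me3 rose at 3 (median 1.29, against -0.04 and 2.42%). Every core carried UP or DOWN, so all tested cores are marked genes. Among tested cores marked DOWN, H3K4me3 fell at 26.4% (median log2 -0.07), H3K27ac fell at 29.6% (-0.37) and H3K27me3 rose at 4.11% (0.15). Col1a2, a type I collagen chain, had 111 and 101.2 CPM of H3K4me3 in WT and 18.8 and 13.0 in cKO (-2.76 ± 0.20), 79.2 and 88.8 against 10.8 and 3.24 of H3K27ac (-3.57 ± 0.37), and 5.17 and 0.777 against 37.0 and 33.2 of H3K27me3 (3.55 ± 0.83). Col1a1, the other chain, had 84.4 and 94.9 against 45.1 and 45.8 of H3K4me3 (-0.98 ± 0.15) and 56.1 and 36.8 against 40.5 and 31.3 of H3K27ac (-0.36 ± 0.32, adjusted p = 0.37). Wnt10b had 153 and 170 CPM of H3K4me3 in WT against 15.8 and 15.9 in cKO (-3.35 ± 0.15). The H3K27me3 calls of Col1a1, Col1a2 and Wnt10b were each lost without cKO replicate 1 or without cKO replicate 2. That of Col1a1 was lost with the chromosome shift removed (2.3, adjusted p = 0.0614) and that of Wnt10b with 200 bp to each side (0.0602). Msx2, a homeobox factor, was the exception for H3K4me3, with 58.8 and 50.3 CPM in WT and 61.3 and 58.1 in cKO. Of the 7 measured stroma markers, all marked DOWN, 6 fell in H3K4me3 and 5 in H3K27ac. Their part in the osteoblast list's change was not tested. The marker list shares Col1a1 and Col1a2 with the osteoblast genes and Cxcl12, Pdgfrb and Vcam1 with the niche genes below.

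Genes of the blood niche went both ways. Of 15 measured (12 marked DOWN), H3K4me3 rose at 4 and fell at 5, H3K27ac rose at 1 and fell at 6, and their median log2 was -0.02 and -0.37. Over all tested cores 43.7% rose and 14.3% fell in H3K4me3 (median 0.27), and 28.6% rose and 15.9% fell in H3K27ac (0.15). Vcam1, an adhesion molecule, had 55.6 and 44.0 CPM of H3K4me3 against 23.1 and 20.1 (log2 -1.21 ± 0.23). Pdgfrb, a stromal growth factor receptor, had 147 and 130 against 55.6 and 63.6 (-1.21 ± 0.13). In both the core over flank ratio rose, by 1.76 and 1.66, and the flank fell by 2.97 and 2.87. Cxcl12, the chemokine that retains blood stem cells, had 189 and 185 against 151 and 144 (-0.34 ± 0.10, adjusted p = 0.00804), but with the chromosome shift removed the value was 0.06. Kitl, the stem cell factor gene, had 132 and 124 against 145 and 133 (0.12 ± 0.11, adjusted p = 0.372). The ratio of core over flank rose at both, by 0.64 and 0.69 (adjusted p = 0.0016 and 8.5e-04). Pparg, the adipocyte regulator, had 85.9 and 108.9 CPM against 34.2 and 32.8 (-1.54 ± 0.17), with a rise of core over flank of 2.17 and of core H3K27me3 of 2.94 ± 0.61. Without cKO replicate 1 that H3K27me3 call was lost (adjusted p = 0.0944).

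Polycomb target transcription factors went both ways in all 3 of H3K4me3, H3K27ac and H3K27me3. Of 14 measured from a list of 36 (9 marked UP), H3K4me3 rose at 9 and fell at 3 (median log2 1.53, against 0.27 over all tested cores), and H3K27ac rose at 7 and fell at 2 (0.81 against 0.15). The ratio of rises to falls in H3K4me3 was near that of all tested cores (43.7% and 14.3%), and H3K27ac fell about as often as there (15.9%). H3K27me3 rose at 3 and fell at 6 (median -0.77, against -0.04, with 2.42% and 6.6% of all tested cores). Foxd1 had 13.7 and 9.03 CPM of H3K4me3 in WT and 125 and 111 in cKO (3.39 ± 0.21) and 8.83 and 6.83 against 125 and 98.6 of H3K27ac (3.84 ± 0.32). Irx1, an Iroquois factor, had 0.967 and 0.764 CPM of H3K4me3 against 111 and 110. Hoxc11 and Hoxc13, homeobox genes, had the other direction: H3K4me3 at Hoxc11 went from 108.9 and 81.8 to 9.66 and 8.63 CPM and at Hoxc13 from 130 and 114 to 27.9 and 31.8, while H3K27me3 rose by 2.13 ± 0.40 and 3.11 ± 0.48. Sox9, the cartilage regulator, had 139 and 122 against 287 and 255 of H3K4me3 (1.06 ± 0.11), and its H3K27me3 lay between 6.99 and 17.6 CPM. Irx1, Hoxc11, Hoxc13 and Msx2 were chosen after their values were seen.

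Among 7 measured genes of the Polycomb and BAP1 complexes, H3K4me3 rose at 5 and fell at 0, with 43.7% and 14.3% over all tested cores. Phf19, a PRC2 accessory subunit, was the only one of the 7 to lose both Polycomb marks. Its core H3K27me3 was 157 and 138 CPM in WT and 8.50 and 19.0 in cKO (log2 -3.43 ± 0.43). H2AK119ub1 was 44.7 and 50.7 against 17.5 and 11.6 (-1.72 ± 0.40, adjusted p = 0.0194). With the chromosome shift removed it was -1.47 (adjusted p = 0.0993), and the call was also lost without cKO replicate 2 (0.138) and with 200 bp to each side (0.0609). H3K4me3 was 22.1 and 30.0 against 136 and 142 (2.41 ± 0.16). Foxk2, a forkhead partner of BAP1, had 81.5 and 83.9 against 157 and 166 CPM of H3K4me3 (0.97 ± 0.11). Of 17 housekeeping genes (11 marked UP), H3K4me3 rose at 11 and fell at 1, with a median of 0.86 against 0.27 for all tested cores. Ndufaf8, a respiratory complex I assembly factor, had 186 and 147 against 332 and 317 (0.97 ± 0.11) and Rps6, a ribosomal protein, 104 and 100.1 against 218 and 197 (1.03 ± 0.10). H2AK119ub1 was called at 0 of 17 and H3K27me3 at 0 of 16 tested housekeeping cores by edgeR, with 2 each at an unadjusted p under 0.05. Their medians were a log2 of 0.60 and 0.35, against -0.04 over all tested cores, and their summed H2AK119ub1 was 197 and 237 CPM in WT against 296 and 305.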

How the data were processed

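The deposited values are raw counts of reads for 200 bins of 50 bp around each gene start. The build was GRCm38, per the submitters' processing notes, which list Bowtie2 2.4.5 and cutadapt 1.18, then bedtools 2.30.0, SAMtools 1.9 and Picard 2.25.5, with no settings. Runs of filled bins were shorter than 3 bins in 0.789% of those under 6 bins. Symbols were assigned by position within 500 bp of a RefSeq start (3300 cores, 87.1%), and 202 cores (5.33%) overlap another.

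Summed bins were tested with edgeR 4.0.16 in R 4.3.3 (quasi-likelihood, robust) on the 4 libraries of a mark. Library sizes were autosomal sums times TMM factors of 10 kb windows. Tests of ratios used library, region and their interaction with genotype. Cores needed a mean of 10 counts per library (20 for ratios). The fits were tested on simulated data. DESeq2 1.42.0 was an alternative.

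The cores, lists, classes and alternatives were chosen with earlier results of these data known. Named genes were the 3 cores of lowest p per direction and mark for the level, 2 for core over flank and 1 for the other ratios, with both cKO libraries on one side of WT, leaving out predicted, clone and receptor-family names; 2 of each list; and Cxcl12, Kitl, Pparg, Sox9, Col1a1 and Col1a2. Of the cores this rule names, 2 are not reported here. Removing the median or the chromosome shift was added after seeing the data.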

Additional observations from a re-analysis of the deposited data

How the results depend on the processing

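The index differences of the summed cores kept their sign in every alternative and without any single library, but not always their size. As a mean over genes the H3K27me3 share differed by -0.184 and its TSS depletion index by -0.0210. With 1 bin in 3 that index differed by -0.0477 for H3K27me3 and 0.0800 for H3K27ac. Over the tests, 390 recomputed values stayed within 1.5 times the reported count or within the larger SD between libraries, and the others did not. Where a count moved with the width of the core or with a library left out, the values tested differ by construction; otherwise the cause was not tested.

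Core levels depended on the setting mostly for the Polycomb marks. With 200 bp to each side, H2AK119ub1 had 3 higher and 19 lower cores, H3K27me3 26 and 106, and H3K27ac 377 lower. With 1 kb to each side the counts were 266 and 261, 244 and 392, and 881 lower, and H3K4me3 had 895 lower. DESeq2 gave 65 higher cores for H2AK119ub1, 148 higher for H3K27me3 and 1072 lower for H3K4me3, and factors from the cores gave 1024 lower for H3K4me3. With 1 bin in 3, higher cores numbered 47 for H2AK119ub1 and 145 for H3K27me3. Library sizes from the outer flanks gave 43 higher for H2AK119ub1, and the chromosome shift, removed after seeing the data, left 2 higher and 8 lower. Without single libraries H2AK119ub1 ranged from 4 to 68 higher and 36 to 90 lower, and H3K27me3 from 11 to 167 and 69 to 264.

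Of the ratios, core over flank for H2AK119ub1 had 0 higher at either other width, and H3K27me3 had 1 higher and 11 lower with 1 kb. H3K27ac had 44 and 11 with 200 bp and 525 and 164 with flanks at 2 to 5 kb. Relative to the median, a step added after seeing the data, H3K4me3 had 481 and 428 and H3K27ac 104 and 104. Without single libraries the ranges were 0 to 1 and 0 to 2 for H2AK119ub1, and 116 to 327 and 24 to 47 for H3K27ac. Between the sides of the core, H3K4me3 had 113 higher and 237 lower with 1 bin in 3 and 0 to 166 and 2 to 297 without single libraries. H3K27me3 had 1 lower with no filter, and H3K27ac 0 to 1 lower without single libraries. At the TSS bins, H3K4me3 had 145 and 26 with bins 97 to 100, 134 and 14 with 1 bin in 3, 71 higher with no filter, 22 higher relative to the median, and 0 to 154 and 0 to 19 without single libraries. H3K27ac had 0 and 1 with bins 97 to 100, 1 higher relative to the median, 1 lower with 1 bin in 3, and 0 to 0 in both directions without single libraries.

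The labels number the replicates without saying what a number shares, and same-numbered libraries did not deviate together (r 0.00229 for H2AK119ub1, 0.000787 for H3K27me3, 0.0768 for H3K4me3 and 0.0275 for H3K27ac). With the replicate number as a block, H2AK119ub1 had 49 higher and 113 lower cores. Between the sides the block gave H3K27me3 1 and 1 and H3K27ac 26 and 11, and at the TSS bins it gave H3K4me3 82 and 11.

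Of 98 results for named genes 73 were called, and 19 of these were lost in at least 1 alternative, 5 of them only without a library. The sign turned for 2: Cxcl12 core H3K4me3 with the chromosome shift removed (0.0583, edgeR adjusted p = 0.619) and Cpeb3 H3K27ac at the TSS with bins 97 to 100 (0.00458, edgeR adjusted p = 0.998).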
